A study of Homo sapiens with 6 samples.

Results

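The genes described here are the early growth response factors EGR1 and EGR3, the NAB corepressors NAB1 and NAB2, and the immediate early response genes IER2, IER3 and IER5. They were chosen by name, with earlier results of these data known. All 22 probe sets annotated to exactly 1 gene, that gene being one of the 7, were used. In all, 44988 probe sets were annotated to exactly 1 gene, for 18132 genes. The series holds 6 Affymetrix arrays of T24, an established human bladder carcinoma line grown in DMEM with serum, which served as 1 line for all samples. The 3 control arrays are of cells labelled as normal T24, and the 3 MAP30 arrays are of T24 exposed for 48 hours to 10 µg/ml of MAP30, a protein of bitter melon that inactivates ribosomes. The sources used here do not give what the control cells received or whether replicates came from separate cultures. The spread behind each p-value may therefore be technical. The comparison asks how the 7 transcripts stand 48 hours after the protein was added.

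EGR proteins are zinc finger transcription factors that bind GC-rich sites near promoters. Their genes are transcribed within minutes of growth factors or stress, through serum response factor (SRF) and its ETS partners bound at CArG boxes. NAB1 and NAB2 bind EGR proteins and repress their activity with the NuRD chromatin remodelling complex, and NAB2 is itself known as an EGR target, which closes a feedback loop. IER2 and IER5 are related proteins that bind phosphatase PP2A, IER5 being known to act on heat shock factor HSF1. IER3, also called IEX-1, is an unrelated small protein of stress and survival signalling.

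The sequence before the start site is shown for EGR1, IER2 and IER5, 3 genes that were higher with MAP30. The search for the elements named below took in this sequence and the 50 bases after the start site. Within the stretches searched, only EGR1 of these 3 genes held a CArG box or an EGR site. Sequences are from RefSeq (GRCh38.p14), plus strand, 5′ to 3′, and all these genes lie on that strand. Capitals mark matches on either strand to a CArG box (CC, then 6 A or T, then GG), the EGR site GCGNGGGCG, the CRE half-site TGACG and a TATA box (TATAAA or TATATA).
EGR1 chr5:138465229-138465478: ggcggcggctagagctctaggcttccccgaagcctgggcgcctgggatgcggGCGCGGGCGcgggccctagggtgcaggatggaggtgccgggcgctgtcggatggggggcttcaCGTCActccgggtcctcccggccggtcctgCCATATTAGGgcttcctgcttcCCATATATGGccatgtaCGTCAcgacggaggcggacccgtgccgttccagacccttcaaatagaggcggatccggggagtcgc
IER2 chr19:13150161-13150410: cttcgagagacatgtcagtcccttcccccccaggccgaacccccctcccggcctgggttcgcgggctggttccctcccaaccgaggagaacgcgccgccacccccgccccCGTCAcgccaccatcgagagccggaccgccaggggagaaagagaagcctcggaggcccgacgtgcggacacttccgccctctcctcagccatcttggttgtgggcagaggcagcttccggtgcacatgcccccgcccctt
IER5 chr1:181088450-181088699: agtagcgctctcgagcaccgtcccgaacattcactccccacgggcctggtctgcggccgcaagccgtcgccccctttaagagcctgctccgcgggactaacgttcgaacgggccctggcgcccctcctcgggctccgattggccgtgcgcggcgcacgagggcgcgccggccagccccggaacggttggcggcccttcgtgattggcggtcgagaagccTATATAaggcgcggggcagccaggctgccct

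For the repressor genes, which were lower, the matches to the EGR site are shown with 10 bases on each side, because EGR factors are known to act on NAB2. On the plus strand, a match on the other strand reads as CGCCCCCGC.
NAB2 chr12:57089042-57089070: tgtgcgtcctGCGGGGGCGgaggcgcgga
NAB1 chr2:190648843-190648871: gcccagcggcCGCCCCCGCccccgcccgg
NAB1 chr2:190648849-190648877: cggccgccccCGCCCCCGCccggcggcgg
NAB1 chr2:190648898-190648926: actcggccgcGCGTGGGCGggagccggag

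Promoter windows were available for 5 of the 7 genes, not for EGR3 or IER3. There were 35116 windows in all, some genes having more than 1, each of 250 bases before and 50 after a start site. EGR1 held 2 CArG boxes, at -105 to -96 and -83 to -74 from its start site. Of all windows, 1.29% held at least 1 CArG box and 0.031% (11 windows) at least 2. The windows of NAB1, NAB2, IER2 and IER5 held 0. The EGR site was present in 9.43% of all windows, among them those of EGR1, NAB2 and 2 of the 3 NAB1 windows. Those NAB1 windows overlap: the first held the 3 matches printed above, 2 of which overlap each other, and the second held the same 3 and 1 more. The CRE half-site, present in 24.6% of windows, matched in EGR1 (2 times), in IER2 and in each of 3 NAB1 windows, the overlapping windows sharing theirs. IER5 alone of the 5 had a TATA box, which 13.7% of windows held. GC content ran from 67.3% in IER5 to 78.3% in NAB2, apart from the other NAB1 windows at 82.0% and 40.7%, with a median of 58.7% over all windows. A match describes letters in the window and not a bound site.

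Values are log2 expression from which the authors' table had already removed each probe set's median over the 6 arrays. They therefore show differences between arrays and no level, and the 2 groups of a gene lie at about equal distances above and below 0 by construction. No gene can be called abundant, scarce or above background, and EGR1 cannot be set against EGR3 in amount. For the same reason the identity of the cells could not be checked by the presence of epithelial markers. Fold changes take the log base as 2, which no source used here states. Because more genes passed than not, each result is also given where it changes when arrays are centred on spiked-in RNA, either the hybridization controls (here called hybridization scaling) or the poly-A controls (poly-A scaling). These moved the median change over all genes from -0.02 to -0.23 (hybridization) and 0.14 (poly-A).

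All 7 genes differed between groups by limma with Benjamini-Hochberg adjustment over 18132 genes at a threshold of 0.05: 5 were higher with MAP30 and 2 were lower. This threshold was passed by 57.5% of all genes, 26.9% higher and 30.6% lower, so a call by itself sets none of them apart. A rise of at least 2-fold that passed was found in 5.42% of genes and in 3 of the 7, EGR1, IER2 and IER3. Tested by limma's treat against a minimum change of 1.5-fold, the same 3 passed, where 16.3% of genes did. The median log2 fold change was 0.68 over the 7 and -0.02 over all genes. Because the 7 were chosen with earlier results of these data known, these contrasts with all genes only describe them. The 3 MAP30 arrays lay beyond the 3 control arrays for each of the 7, as they did in 62.6% of genes. In this bulk RNA a larger share of responding cells and more RNA per cell cannot be told apart.

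**Figure D1:**
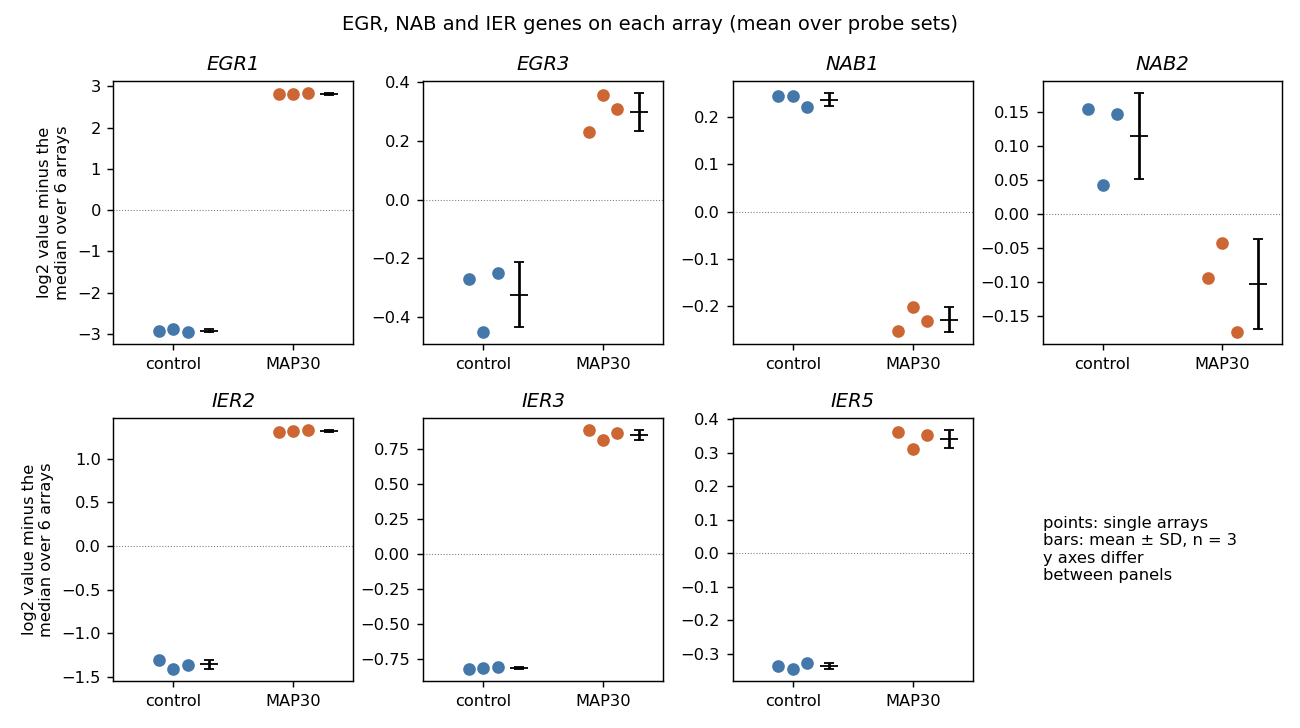
Log2 value of each gene (mean over its probe sets, relative to the median over 6 arrays; y axes differ) on each control and MAP30 array, with mean ± SD (n = 3). The groups do not overlap in any panel, and the size of the difference between group means runs from 5.73 for EGR1 to 0.22 for NAB2.

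EGR1, the founding member of its family, was 53.2-fold higher with MAP30. Averaged over its 6 probe sets, the control arrays read -2.92, -2.88 and -2.95 and the MAP30 arrays 2.80, 2.80 and 2.84. On this mean the arrays within each group were almost superimposed, with an SD of 0.035 in control and 0.019 with MAP30. Single EGR1 probe sets varied more, with control SDs from 0.078 (11717862_x_at) to 0.34 (11752940_a_at). The log2 fold change was 5.73 ± 0.03 SE (95% interval 5.65 to 5.82, adjusted p = 6.82e-10 by limma, n = 3 per group), the 3rd highest of all genes.

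The 6 EGR1 probe sets all rose, but by amounts that differed far beyond their errors. Probe set 11717860_a_at read -4.28, -4.24 and -4.05 in control and 4.05, 4.09 and 4.13 with MAP30, a log2 fold change of 8.28 ± 0.07 SE. At the other end, 11751643_x_at read -1.42, -1.29 and -1.17 against 1.17, 1.21 and 1.31, a log2 fold change of 2.52 ± 0.07 SE. Expressed as folds, the same gene was 312-fold higher by the first and 5.75-fold by the second. Between them lay 11717861_a_at (3.99), 11717862_x_at (5.48), 11752940_a_at (7.04) and 11754334_s_at (7.09). Probe sets named _x_at hold probes that may bind other transcripts, those named _s_at probes shared by several transcripts, and _a_at probe sets read transcripts of 1 gene. The 3 of class _a_at themselves ranged from 3.99 to 8.28. Their range over all 6, 5.76 log2 units, was the 2nd widest of the 11734 genes with 2 or more probe sets, where the median range was 0.26. The direction for EGR1 is therefore the same in every probe set, while the size of its fold depends on which is read.

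EGR1 stood at 5.53 with hybridization scaling and 5.90 with poly-A scaling, but at 4.45 after quantile normalization between arrays. That normalization was applied to values already centred on each probe set's median. With it IER2 also stood lower, at 2.25, and IER3 at 1.51, while IER5 stood at 0.69. EGR1 stood at 6.44 when _s_at and _x_at probe sets were left out. EGR1 passed under all 15 alternatives run.

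EGR3, a close relative of EGR1 with the same zinc finger DNA-binding domain, changed much less on average and not in every probe set. Averaged over 4 probe sets the control arrays read -0.27, -0.45 and -0.25 and the MAP30 arrays 0.23, 0.36 and 0.31. The log2 fold change was 0.62 ± 0.06 SE (1.54-fold higher, adjusted p = 6.65e-05 by limma). This mean rests mainly on 11736342_at, which read -1.40, -1.42 and -0.82 in control and 0.82, 1.24 and 1.07 with MAP30. Control replicate 3 lay closer to the MAP30 arrays than the other controls did, and the groups still did not overlap. Its log2 fold change was 2.26 ± 0.17 SE, or 4.79-fold (adjusted p = 1.55e-05 by limma).

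A second EGR3 probe set, 11736341_a_at, stood at 0.27 ± 0.07 SE (adjusted p = 0.00993 by limma), and at 0.065 with hybridization scaling, where it did not pass. The groups of the remaining pair overlapped and neither passed, 11747812_a_at at -0.11 (95% interval -0.28 to 0.06) and 11751567_a_at at 0.064 (95% interval -0.13 to 0.26). Of these, the first passed as lower with hybridization scaling (-0.32) and the other as higher with poly-A scaling (0.23). With the median over probe sets in place of the mean, EGR3 stood at 0.17 and did not pass (adjusted p = 0.0512 by limma). The range over its probe sets, 2.37, was the 100th widest. Mixed calls among the probe sets of a gene were found in 40.9% of genes with 2 or more.

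**Figure D2:**
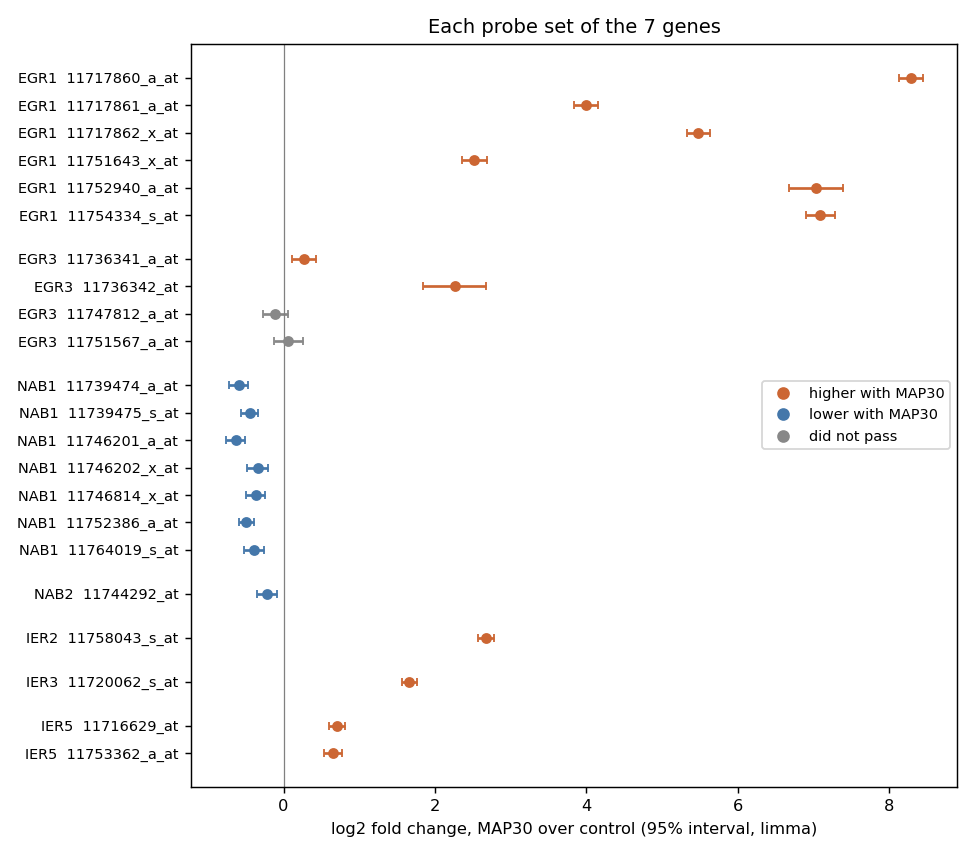
Log2 fold change (MAP30 over control) of each of the 22 probe sets, with 95% intervals from limma; colour gives the call. EGR1 spans 2.52 to 8.28, and the 7 NAB1 probe sets lie together between -0.63 and -0.34. EGR3 has 1 probe set at 2.26, 1 at 0.27 and 2 that did not pass.

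Over the 22 probe sets, 12 passed as higher and 8 as lower, leaving 2, where 56.3% of 49293 probe sets passed in either direction (26.2% higher and 30.1% lower). The groups did not overlap in 20 of the 22, against 61.9% of all probe sets.

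The corepressor genes were slightly lower. NAB1, which represses EGR-driven transcription, read 0.25, 0.25 and 0.22 in control and -0.25, -0.20 and -0.23 with MAP30. Every control array was above every MAP30 array. On the log2 scale the fold change was -0.47 ± 0.03 SE (1.38-fold lower, adjusted p = 8.00e-06 by limma). Each of its 7 probe sets passed as lower, from -0.63 for 11746201_a_at to -0.34 for 11746202_x_at, a range of 0.29 that is close to the median range over all genes. It passed as lower at -0.67 with hybridization scaling and at -0.30 with poly-A scaling.

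NAB2, the corepressor known to be induced by EGR factors, has a single probe set, 11744292_at. It read 0.15, 0.04 and 0.15 in control and -0.09, -0.04 and -0.17 with MAP30. The groups were apart by a narrow margin, replicate 2 of each being nearest to the other group. The log2 fold change was -0.22 ± 0.05 SE (95% interval -0.33 to -0.10, adjusted p = 0.0063 by limma). With poly-A scaling it was -0.054 and did not pass (adjusted p = 0.412 by limma), while with hybridization scaling it was -0.43 and passed. This probe set measured no rise of NAB2 beside that of EGR1 at 48 hours under any of these scalings. Both NAB genes lay on the side where 30.6% of all genes were called.

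The IER genes rose in the order IER2, IER3, IER5. IER2, a nuclear immediate early protein, has 1 probe set, 11758043_s_at. It read -1.30, -1.41 and -1.36 in control and 1.30, 1.31 and 1.33 with MAP30. Its log2 fold change of 2.67 ± 0.04 SE (6.38-fold, adjusted p = 7.37e-09 by limma) was exceeded by 0.408% of genes.

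IER3, the small protein of stress and survival signalling, also has 1 probe set, 11720062_s_at. It read -0.82, -0.81 and -0.81 in control and 0.88, 0.81 and 0.86 with MAP30. This is a log2 fold change of 1.66 ± 0.03 SE (adjusted p = 2.38e-08 by limma), exceeded by 1.91% of genes. The SD of the control arrays was 0.0057 and that of the MAP30 arrays 0.036.

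IER5, the PP2A-binding regulator of HSF1, read -0.34, -0.35 and -0.33 in control and 0.36, 0.31 and 0.35 with MAP30. The log2 fold change was 0.68 ± 0.03 SE (1.60-fold, adjusted p = 9.78e-07 by limma), exceeded by 9.49% of genes. Its 2 probe sets gave 0.70 (11716629_at) and 0.65 (11753362_a_at), a difference of 0.050 that is within their errors. IER2, IER3 and IER5 passed as higher with quantile, hybridization and poly-A scaling alike.

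**Figure D3:**
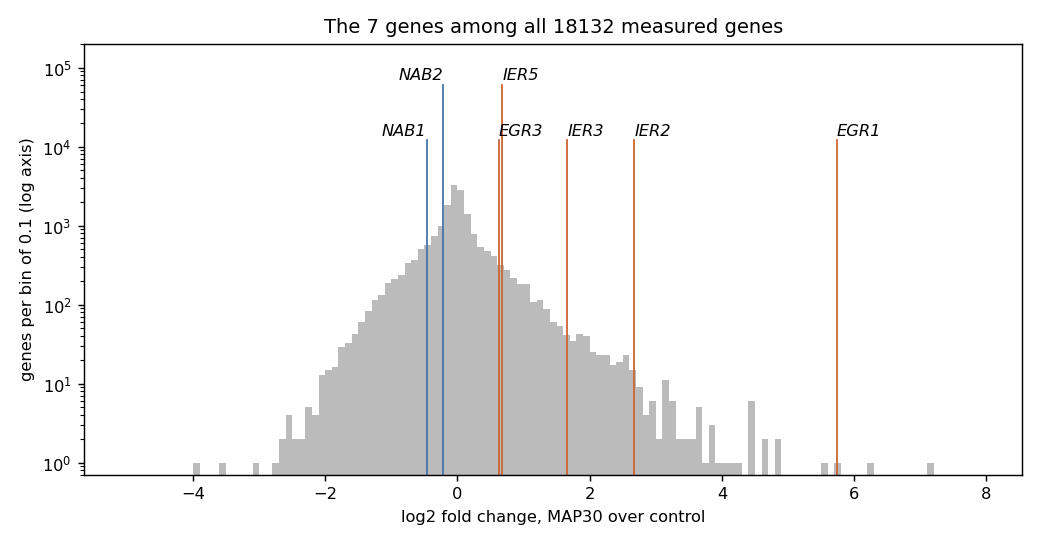
Number of genes per 0.1 of log2 fold change (MAP30 over control; log y axis), with a line at each of the 7 genes. EGR1 stands at 5.73 in the far right tail, IER2 at 2.67 and IER3 at 1.66 in the thinning shoulder, while EGR3, IER5, NAB1 and NAB2 lie among the bulk of genes.

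The difference in change between related genes was compared in 7 pairs by a two-sided exact permutation test over arrays, where 3 against 3 cannot go below 0.1. Every pair reached that smallest value (exact permutation p = 0.1, adjusted p = 0.1 over the 7 pairs), so none could pass a threshold of 0.05. EGR1 exceeded EGR3 by 5.11 log2 units and NAB2 by 5.95. EGR3 exceeded NAB2 by 0.84, with SDs of the per-array difference of 0.05 in control and 0.08 with MAP30, but by 0.39 with the median over probe sets. NAB2 fell less than NAB1 by 0.25, against SDs of 0.07 and 0.06. Within the IER genes, IER2 exceeded IER3 by 1.01 and IER3 exceeded IER5 by 0.98. By the means over probe sets, neighbours in the order EGR1, IER2, IER3, IER5 thus differed by more than their intervals. Those of IER5 (95% interval 0.60 to 0.76) and EGR3 (0.47 to 0.77) overlapped. Such intervals carry the spread between arrays and not that between probe sets. EGR1 probe set 11751643_x_at (2.52) lay below IER2 (2.67), the other EGR1 probe sets above it, and EGR3 probe sets ran from -0.11 to 2.26.

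Among relatives of these genes, EGR4, a family member best known from neurons, stood at 2.96 and passed. IER5L, the closest relative of IER5, went the other way at -0.57 and passed as lower. WT1, whose zinc fingers recognise similar GC-rich sites, stood at -0.087 and did not pass, though it passed as lower at -0.30 with hybridization scaling. EGR2 was not analysed here.

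The other immediate early genes were mostly higher: 18 of 19 measured passed as higher and 0 as lower, beside 26.9% and 30.6% of all genes. Their median log2 fold change was 1.07. Of them FOS (3.59), an AP-1 subunit, and DUSP1 (2.51), a phosphatase of MAP kinases, rose most. DUSP2 stood at 0.071 and did not pass. Hybridization scaling left 15 higher and put 1, DUSP2, lower, and poly-A scaling put all 19 higher. Averaged over probe sets, the change of EGR1 exceeded that of each of the 19, while the changes of EGR3 and IER5 lay below their median. By single probe sets, 11751643_x_at of EGR1 (2.52) lay below FOS and its others above. For EGR3, 11736342_at (2.26) lay above the median of the list and its others below. This list, like the others, was chosen with earlier results of these data known.

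Genes upstream of EGR transcription were called in both directions. Of 14 measured SRF, ETS-partner and ERK pathway genes, 4 passed as higher, a share near the 26.9% of all genes, and 8 as lower (30.6% of all genes). Their median was -0.14. SRF itself stood at -0.13 (passed as lower) and its partner ELK1 at -0.15, and neither passed with poly-A scaling (0.035 and 0.019). ELK3 (0.54), another ETS partner, and FHL2 (0.48), a cofactor of SRF, were highest. The ribosomal S6 kinase genes RPS6KA3 (-1.23) and RPS6KA1 (-0.99), which act below ERK, were lowest. Hybridization scaling made it 2 higher and 9 lower, and poly-A scaling 6 and 6.

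Genes listed here as EGR1 targets split. Of 25 measured, 11 were higher and 12 lower, where 26.9% and 30.6% of all genes were, and 2 did not pass. The median was -0.12. The stress factors ATF3 (3.10) and GADD45A (2.42) rose most, both of which also answer to other stress regulators. FN1 (-1.05), which encodes fibronectin, and MMP14 (-0.91), a membrane-bound protease, fell most. Hybridization scaling made it 10 higher and 14 lower, and poly-A scaling 12 and 8. Both directions thus occurred in the list under each of these scalings.

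NuRD subunits, the partners of the NAB proteins, were mostly lower, 10 of 13 passing as lower (30.6% of all genes) and 1 as higher (26.9% of all genes), and their median was -0.26. The histone-binding subunit genes RBBP4 (-1.33) and RBBP7 (-0.82) fell most. The deacetylase genes HDAC1 (-0.68) and HDAC2 (-0.23) and the remodeller genes CHD4 (-0.34) and CHD3 (-0.26) were also lower. MTA2 (0.095) passed as higher but not with hybridization scaling, which put 12 subunits lower and 0 higher. Poly-A scaling put 7 lower, HDAC2 not among them, and 3 higher.

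Of 13 PP2A subunits, the phosphatase to which IER proteins bind, 4 passed as higher and 5 as lower, shares near those of all genes (26.9% and 30.6%), so the counts say nothing particular of PP2A. The regulatory subunit genes PPP2R5B (1.14) and PPP2R2A (0.92) and the catalytic subunit gene PPP2CA (0.82) were higher. PPP2R5D (-0.72) and PPP2R2D (-0.61) were lower. The median was -0.072. Hybridization scaling put 4 higher and 9 lower, and poly-A scaling 6 and 4.

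HSF1, the heat shock factor on which IER5 is known to act, stood at 0.24 and passed as higher, but not with hybridization scaling (0.036). The list of HSF1 and its target genes was lower in 8 of 12 and higher in 2, HSF1 itself and HSPA4L. Of all genes, 30.6% were lower and 26.9% higher. The median of the list was -0.71. The chaperone genes HSPA1B (-1.37) and DNAJB1 (-1.23) fell most, and HSPA4L (0.55) rose. Hybridization scaling put 10 lower and 1 higher, and poly-A scaling 7 and 3.

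**Figure D4:**
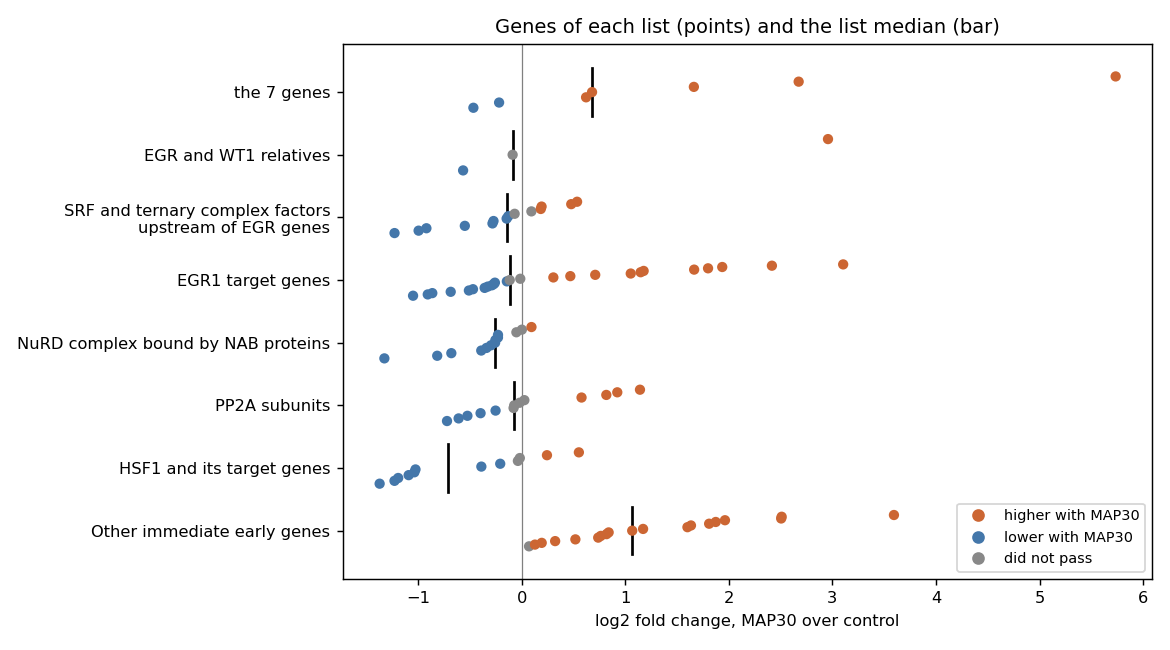
Log2 fold change (MAP30 over control) of each measured gene in 7 lists and of the 7 genes themselves; points are genes coloured by call, bars are medians. Other immediate early genes lie to the right (median 1.07), HSF1 and its target genes mostly to the left (median -0.71), and EGR1 targets fall on both sides of 0.

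The genes whose values over the 6 arrays were nearest to each of the 7 were found by the root mean square difference in log2 units, with members left out. EGR1 had no near match: the nearest were ARL14 (difference 0.29, change 6.28) and GEM (0.33, change 5.58). IER2 was nearest to HRH1 (0.037) and CDKN2B (0.051), and IER3 to TSC22D1 (0.020) and PMAIP1 (0.038). IER5 was nearest to NFE2L2 (0.015), which encodes the oxidative stress factor NRF2, and SLU7 (0.017). EGR3 was nearest to TTLL11 (0.038) and ZNF329 (0.043), NAB1 to TUFM (0.0086) and GDI2 (0.010), and NAB2 to LIMS1 (0.020) and TEKTIP1 (0.023). With 2 groups and 6 arrays, likeness here is mostly likeness in the size of the change.

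The genes adjacent to EGR1, IER2 and IER3 showed no rise of like size. Adjacent genes were taken as the nearest measured protein-coding gene on each side in the RefSeq order of GRCh38.p14. Beside EGR1 (5.73), REEP2 stood at -0.38 and ETF1, which encodes a translation release factor, at 0.43. Beside IER2 (2.67), STX10 stood at -0.48 and CACNA1A at 0.29. Beside IER3 (1.66), FLOT1 and DDR1 stood at -0.56 and -0.55. IER5 (0.68) lay between MR1 (0.65) and CACNA1E (-0.073), and EGR3 (0.62) between BIN3 (-0.26) and PEBP4 (-0.020). NAB1 (-0.47) lay between NEMP2 (0.38) and STAT4 (0.69). NAB2 (-0.22) lay between NEMP1 (0.61) and STAT6 (-0.18).

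Over the series the root mean square difference between arrays was 0.105 to 0.121 within groups and 0.617 to 0.622 between groups, so no array stood apart. Of all genes 4878 were higher and 5553 lower, against 3087 and 11558 with hybridization scaling and 8906 and 3754 with poly-A scaling. The 3′ over 5′ log2 ratio of control probe sets was higher with MAP30 by 0.16 for ACTB and 0.043 for GAPDH (two-sided exact permutation p = 0.1 each). That is the smallest p that 3 against 3 arrays can give, and the part of this ratio in the results was not tested. Of 6 epithelial markers 1 was higher and 2 lower, of 5 leukocyte markers 2 higher and 1 lower, of 5 endothelial markers 2 higher (KDR at 0.22 and TEK at 0.14) and of 6 fibroblast markers 2 higher, beside 26.9% of all genes higher and 30.6% lower. Hybridization scaling put 0 endothelial and 0 fibroblast markers higher, and poly-A scaling 5 and 6, that is all of them, with 4 of the leukocyte markers. ITGAM (2.76) moved most among the markers of other cell types. With values centred, none of them can be placed at or above 0 expression, and their part in the results was not tested.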

How the data were processed

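The authors deposited a table of log2 values for 49395 probe sets on 6 arrays, with no missing value; per the submitters' processing notes, RMA and MAS5 were used, with roles not given in the sources used here. Each probe set's median over the arrays is 0 (within 5.0e-07), which removes levels, so no filter on dim probe sets was possible. Probe sets were named by the platform annotation: 44988 had 1 gene, 1832 several, 2473 none, and 102 were controls. Probe sets of 1 gene were averaged. MAP30 and control (3 arrays each) were compared with limma 3.58.1 in R 4.3.3 (lmFit, eBayes, two-sided, Benjamini-Hochberg over 18132 genes, or over 49293 probe sets for single probe sets), tested on simulated data. Alternatives were quantile, array-median and spiked-in scaling, a robust fit, limma's treat, the median over probe sets, classes of probe sets, leaving out each array, and the replicate number as a block. Hybridization controls (18 probe sets) and poly-A controls (24) are spiked-in RNAs, which moved by 0.21 and -0.16 with MAP30. Named genes are the 7 members, the 2 largest rises and falls that passed in each list, all of the EGR and WT1 relatives, nearest genes by likeness and adjacent genes; HDAC1, HDAC2, CHD3, CHD4, PPP2CA, SRF, ELK1, HSF1, DUSP2, KDR, TEK and ITGAM were added after their values were seen. Members and lists were chosen with earlier results of these data known. Figures used Python 3.11.15 and matplotlib 3.10.9.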

Additional observations from a re-analysis of the deposited data

How the results depend on the processing

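Every one of the 7 genes kept its direction under every alternative run, and 97 of their values stayed past the threshold while 6 did not. Leaving out _s_at and _x_at probe sets could not be run for IER2 and IER3, whose only probe set is of class _s_at. With treat, which tests against a minimum change of 1.5-fold, EGR3 (0.62), NAB1 (-0.47), NAB2 (-0.22) and IER5 (0.68) did not pass by limma (adjusted p 0.0669 for IER5 and 1.00 for the others), and calls over all genes were 1553 higher and 1397 lower (16.3% of genes) and over probe sets 4476 and 4338. NAB2 did not pass with poly-A scaling (-0.054), nor EGR3 with the median over probe sets (0.17); that median moved the pairs EGR1 minus EGR3 to 5.996, EGR1 minus NAB2 to 6.38 and EGR3 minus NAB2 to 0.39. Hybridization scaling gave 3087 genes higher and 11558 lower and 8592 and 28498 probe sets; poly-A scaling gave 8906 genes and 21599 probe sets higher. These scalings shift every gene alike. In lists, hybridization scaling gave 2 EGR and WT1 relatives lower, 2 upstream genes higher, 0 NuRD subunits higher, 9 PP2A subunits lower, 1 HSF1-list gene higher, 1 immediate early gene lower, 5 epithelial and 3 leukocyte markers lower, 0 endothelial markers higher and 3 lower, and 0 fibroblast markers higher and 4 lower. Poly-A scaling gave 3 NuRD subunits, 3 epithelial, 4 leukocyte, 5 endothelial and 6 fibroblast markers higher, and 0 leukocyte markers lower. Leaving out any 1 array changed no call among the 7 genes; NAB2 ran from -0.25 to -0.18 (highest adjusted p = 0.0254 by limma) and EGR3 from 0.56 to 0.66. Same-numbered replicates did not deviate together (correlations across genes of -0.040, 0.070 and 0.011, and 1 of 3 controls correlated best with its own number). With the replicate number as a block, all 7 genes passed, and 4838 genes were higher and 5483 lower. The median over control probe sets was not run, since each end of ACTB and GAPDH has 1 probe set. The number of arrays limits the precision.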
